A study of Mus musculus with 6 samples.

Results

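The circRNAs described here are those whose 2 back-spliced ends lie at least 20000 bp apart in the mouse genome. They were chosen by genomic span alone, from the start and end in each circRNA's name, among circRNAs with a host gene on a chromosome other than the mitochondrial one. The rule gave 2030 long-span circRNAs from 1082 host symbols, of 18349 circRNAs with a host (11.1%) and 20532 listed in all (9.89%). A further 36 intervals of this length had no host symbol or were mitochondrial and were left out.

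The 6 libraries came from total RNA of mouse aorta, and each of 3 groups had 2 of them. The high-fat group held ApoE-/- mice moved at 3 months of age to a high-fat diet that lasted 3 months. The ApoE-/- chow group held mice of the same genotype on chow, and the C57BL/6J chow group held wild-type mice on chow. All animals are labelled as C57BL/6 strain, and no age of the chow-fed mice was used here. ApoE-/- mice lack apolipoprotein E, clear lipoprotein remnants poorly and are a standard model of atherosclerosis. Aortae contain smooth muscle, endothelium, fibroblasts, adventitial fat and, in lesions, macrophages, so fewer cells of a type and less RNA per cell cannot be told apart.

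A circRNA forms when a splice donor is joined to an acceptor upstream of it in the same transcript, which leaves a closed ring without a cap or a poly(A) tail. The distance between the 2 ends is a genomic span and not the length of the RNA, because introns inside the span are usually removed. Long introns around the circularised exons, often with complementary repeats, are a known aid to back-splicing. A read across the back-spliced join, called a junction read here, is the direct evidence for a circRNA. Reads inside the interval that do not cross the join, called interval reads here, mix linear, intronic and circular RNA.

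Because circRNAs arise by splicing, the bases at their ends were read wherever a RefSeq promoter window of GRCm38.p6 happened to cover an end. This was possible for 1 end of each of 36 long-span circRNAs, at 31 distinct sites. All 36 ends carried the splice-site dinucleotide next to the end, AG before an acceptor in 20 and GT after a donor in 16, and in all 36 it lay on the strand of the host gene. Among shorter circRNAs with a host, 165 of 190 readable ends (86.8%) carried AG or GT, and a further 15 carried GC in place of GT. Of 153 ends with AG, GT or GC and a known host strand, 127 were on it. The sequences below show 6 such ends, in the direction of transcription, with AG or GT in capitals. The first 4 are acceptors, where the circRNA begins after the capitals, and the last 2 are donors, where it ends before them.

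Ctbp2, chr7:133081846-133081875, minus strand: ccattgcatttgcAGggcttcatcactgta

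Ttc7b, chr12:100495426-100495455, minus strand: tctttttccttctAGtcagaattcctacaa

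Lphn2, chr3:148954721-148954750, minus strand: gtttgtttttttcAGatatgaggatcaatg

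Fbxw7, chr3:84863949-84863978, plus strand: ttttctattattcAGgaaatctcagctatc

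Crim1, chr17:78281352-78281381, plus strand: taccctgccagcaagGTtggttcggcaccc

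Pard3, chr8:127474601-127474630, plus strand: caaacctggagacagGTaggtgctggcagc

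The Ctbp2 end belongs to chr7:133025713-133081860, a circRNA with 62 junction reads in 4 libraries from the gene of a transcriptional corepressor. The Ttc7b end belongs to chr12:100446860-100495440, with 20 junction reads in 5 libraries, and the Lphn2 end to chr3:148890412-148954735, with 8 in 4 libraries. Lphn2 is the older symbol of the adhesion receptor gene Adgrl2. The other 3 ends belong to circRNAs with 5 to 10 junction reads in 2 or 3 libraries, from Fbxw7, the substrate receptor of a ubiquitin ligase, Crim1, a membrane protein that binds bone morphogenetic proteins, and Pard3, a cell polarity scaffold.

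Long intervals can also hold other genes' RNA, and microRNA hairpins were looked up for this reason. Of 1005 RefSeq hairpins, 17 lay inside at least 1 long-span circRNA, and 21 of the 2030 (1.03%) held one. Junction reads in 2 or more libraries were found for 4 of the 21, from Zmiz1, Fndc3b, Pank1 and Nbea. A mature microRNA of each is shown, to let the seeds be compared, with the seed, bases 2 to 8, in capitals. For Pank1 and Fndc3b the other arm, mmu-miR-107-5p and mmu-miR-3092-5p, is also in the RefSeq table and is not shown. No seed is shared among these microRNAs, both arms counted.

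mmu-miR-107-3p, in Pank1: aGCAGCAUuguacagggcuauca

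mmu-miR-3075-3p, in Zmiz1: aUCCUUGGccuuccuaggugu

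mmu-miR-3092-3p, in Fndc3b: gAAUGGGGcuguuuccccucc

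mmu-miR-12194-3p, in Nbea: uCUGUGGGucuguuuguccguc

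The Pank1 circRNA chr19:34812278-34841109 spans 28832 bp of the gene of a pantothenate kinase, which starts coenzyme A synthesis. It had 5 and 0 junction reads in high-fat 1 and 2, 4 and 2 in ApoE-/- chow libraries 1 and 2, and 2 and 0 in C57BL/6J chow 1 and 2. The Zmiz1 circRNA chr14:25502655-25581673 had 9 and 0 junction reads in high-fat aortae, 0 and 2 in ApoE-/- chow aortae, and 5 and 0 in C57BL/6J chow aortae. At these depths the groups overlapped for both. The interval says only that the hairpin lies between the ends, and whether it is part of the ring was not analysed here.

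The libraries held 76355980 and 76578908 reads in high-fat 1 and 2, 77352690 and 75452177 in ApoE-/- chow libraries 1 and 2, and 71809199 and 69130844 in C57BL/6J chow 1 and 2. Junction reads of circRNAs with a host numbered 33649 and 16005 in high-fat aortae, 14146 and 13965 in ApoE-/- chow aortae, and 25888 and 3100 in C57BL/6J chow aortae. C57BL/6J chow 2 stood apart: 33.2% of its hosted junction reads came from spans under 500 bp, against 10.5% to 14.9% in the other 5 libraries. The columns deposited for ApoE-/- chow 1 carry a C57BL/6J name, and its label was kept. Apoe was listed with a single short circRNA whose interval had 1.02 and 0.979 RPM (reads scaled by library total) in high-fat aortae, 1.66 and 1.14 in ApoE-/- chow aortae, and 2.45 and 2.03 in C57BL/6J chow aortae. The interval reads of 5 listed smooth muscle marker genes summed to 112.5 and 146.5 RPM in high-fat aortae, 133.6 and 91.5 in ApoE-/- chow aortae, and 142 and 38.2 in C57BL/6J chow aortae, with Tagln and Lmod1 not listed. Those of 4 listed macrophage marker genes of 7 summed to 11.9 and 11.1 RPM in high-fat aortae, 3.45 and 5.26 in ApoE-/- chow aortae, and 3.31 and 2.42 in C57BL/6J chow aortae, with Lyz2, Cd68 and Csf1r not listed. None of the 5 striated muscle or 3 neural markers was listed.

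The long-span circRNAs had a median span of 32881 bp (range 20005 to 99202 bp), with quartiles of 24901.5 and 48943 bp. Shorter circRNAs with a host had a median span of 1726 bp. There were 863 long-span circRNAs of 20000 to 29999 bp, 688 of 30000 to 49999 bp and 479 of 50000 to 99999 bp, and none longer. At the limit of 20000 bp, circRNAs of Ptpn2 (20005 bp, 4 junction reads) and Pank1 (20010 bp, 6 reads) lay just inside, and circRNAs of Fam53b (19997 bp, 6 reads) and Arhgap32 (19972 bp, 2 reads) just outside. Among the 5 longest, circRNAs of Ccdc113, Ccdc141, Rbfox2 and an unannotated FANTOM3 transcript had 1, 4, 10 and 4 junction reads.

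Across spans, junction reads per circRNA did not fall off at 20000 bp. The mean over the 6 libraries was 8.77 reads for spans from 10000 bp up to the limit and 8.98 for 20000 to 29999 bp. It was 6.14 for 30000 to 49999 bp and 5.43 for 50000 to 99999 bp. The classes from 500 bp up to 10000 bp had means of 6.68 to 7.12, above those of the classes from 30000 bp. Only spans under 500 bp had a lower mean than the longest class, 2.59. The median was 2 in every class. By median, interval reads per kb of span were sparser, with 1.31, 0.879 and 0.719 over circRNAs in the 3 long-span classes, from the shortest to the longest, against 4.04 for spans from 10000 bp up to the limit. The means did not fall steadily, at 10.4, 11.1 and 17.8 in the same 3 classes against 13 below the limit. Long-span circRNAs supplied 14574 junction reads in all. In high-fat 1 and 2 they made up 15.05% (95% Wilson interval 14.7 to 15.4) and 12.9% (12.3 to 13.4) of hosted junction reads. In ApoE-/- chow 1 and 2 the shares were 14.1% (13.6 to 14.7) and 12.2% (11.7 to 12.8), and in C57BL/6J chow 1 and 2 they were 13.5% (13.1 to 13.9) and 8.19% (7.28 to 9.21). The lowest share was that of C57BL/6J chow 2, and the other 5 libraries of the 3 groups interleaved. These intervals cover counting error only.

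The share averaged 13.9% ± 1.55 in high-fat aortae, 13.2% ± 1.33 in ApoE-/- chow aortae and 10.8% ± 3.75 in C57BL/6J chow aortae (SD, n = 2 each). High-fat aortae were 1.94 percentage points above the 4 chow libraries together, with an exact two-sided permutation p of 0.467. With 2 against 4 libraries the smallest p this test can give is 0.0667. Without C57BL/6J chow 2 the difference was 0.666 points, and without high-fat 1 it was 0.841 points.

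**Figure D1:**
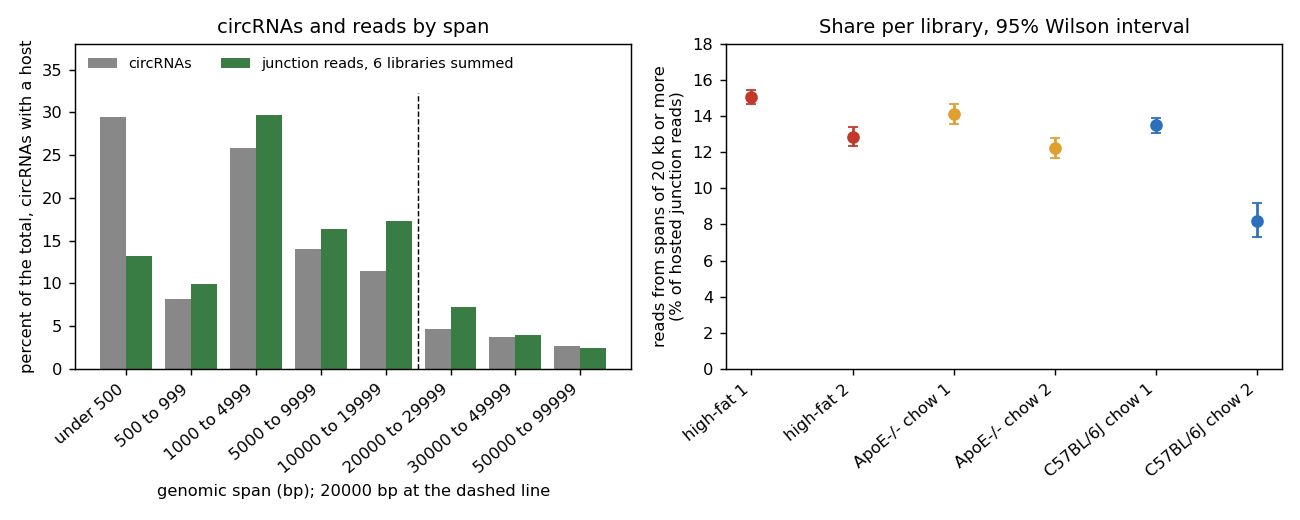
Left: the percent of all 18349 hosted circRNAs (grey bars) and of their junction reads (green bars) in each class of genomic span in bp, with 20000 bp at the dashed line; the 3 classes right of the line hold the long-span circRNAs. Right: the percent of hosted junction reads that came from long-span circRNAs in each library, with 95% Wilson intervals as bars; 5 libraries lie between 12.2% and 15.05% and C57BL/6J chow 2 lies at 8.19%.

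A junction read was found for 1059 and 493 long-span circRNAs in high-fat 1 and 2, 402 and 461 in ApoE-/- chow libraries 1 and 2, and 578 and 107 in C57BL/6J chow 1 and 2. High-fat 1, with the most hosted junction reads, listed the most and C57BL/6J chow 2, with the fewest, the least, but ApoE-/- chow 1 listed fewer than ApoE-/- chow 2 from slightly more reads. At an equal depth of 3100 hosted junction reads the expected numbers were 277 and 218 in high-fat aortae, 206 and 219 in ApoE-/- chow aortae, and 211 and 107 in C57BL/6J chow aortae. High-fat 1 remained the highest and C57BL/6J chow 2 the lowest, and the other 4 libraries lay between 206 and 219.

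Most long-span circRNAs were seen once. Of the 2030, 1480 (72.9%) had junction reads in exactly 1 library, 28 (1.38%) had them in all 6, and 649 (32.0%) had 1 junction read in total. Among shorter circRNAs 79.2% were in 1 library and 0.980% in all 6. That pooled comparison includes spans under 500 bp, of which 6.59% were in 2 or more libraries. The share in 2 or more was 21.1% to 29.8% in the classes from 500 bp up to the limit. In the 3 long-span classes, from the shortest to the longest, it was 28.7%, 28.5% and 22.1%, within or near that range. Reads were concentrated: the 10 long-span circRNAs with the most junction reads held 18.6% of the total and the top 100 held 51.8%. Between replicates, 240 were found in both high-fat libraries (22.7% of those in high-fat 1 and 48.7% of those in high-fat 2), 123 in both ApoE-/- chow libraries (30.6% and 26.7%) and 48 in both C57BL/6J chow libraries (8.30% and 44.9%). Across groups, 878 (43.3%) were seen in high-fat aortae alone, 375 in ApoE-/- chow alone, 293 in C57BL/6J chow alone and 175 (8.62%) in all 3 groups. These counts were not scaled to depth, and the high-fat group held the library with the most hosted junction reads, 33649. The same counts were not made for shorter circRNAs. With 72.9% in 1 library, being seen in 1 group alone does not mark a circRNA as particular to it.

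Of the long-span circRNAs, 1951 (96.1%) had a host in the RefSeq gene table, and 1935 of these lay in protein-coding genes. The host genes were long, with a median of 143728 bp over 1024 genes, against 38889 bp for genes that host shorter circRNAs alone. A long-span circRNA covered a median of 18.8% of its host gene (quartiles 10.8 and 30.4), and at most 95.9%. For 1496 that lay inside a host of known strand, the upstream end was a median of 63293 bp from the gene start. It lay within 1000 bp of the gene start in 19 (1.27%), and the downstream end lay within 1000 bp of the gene end in 12 (0.802%). For shorter circRNAs these counts were 215 (1.72%) and 783 (6.26%) of 12503. The midpoint was nearer to the gene's start than to its end in 49.0% of long-span circRNAs and in 38.2% of shorter circRNAs from hosts of 20000 bp or more. Short genes cannot hold an interval of this length, so host length and distance from the ends are partly set by the rule.

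**Figure D2:**
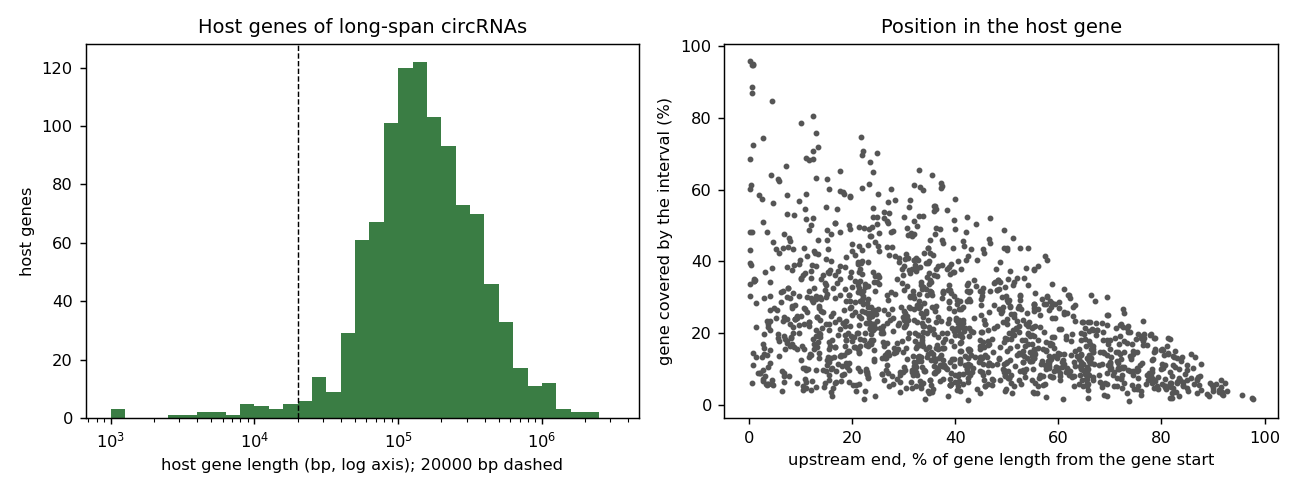
Left: number of host genes of long-span circRNAs (1024 genes) by annotated gene length in bp on a log axis, with 20000 bp dashed. Right: for 1496 long-span circRNAs inside a host of known strand, the upstream end as a percent of gene length from the gene start (x) against the percent of the gene covered (y); the upper edge is where the interval would reach the gene end, and the points lie over most of the area below it, with few at the far left.

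Both ends lay within the annotated host for 1878 (96.3%), against 99.3% of shorter circRNAs. The 73 that ran past their host had 129 junction reads, and 6 (8.22%) were found in 2 or more libraries, against 531 (28.3%) of those inside. They took 34 of 5063 long-span junction reads (0.671%) in high-fat 1 and 22 of 2057 (1.07%) in high-fat 2. In ApoE-/- chow 1 and 2 they took 0.551% and 1.11%, in C57BL/6J chow 1 0.515%, and in C57BL/6J chow 2 9.84%, 25 of 254 reads. Some of them, such as those of Psg28, Ceacam2 and Zfp936, came from genes of large families with related members. How reads were placed among related genes was not tested. Another protein-coding gene was overlapped by 87 long-span circRNAs and held whole by 50.

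Ends were reused. Of the 2030, 889 (43.8%) had an end in common with another long-span circRNA and 1457 (71.8%) with any listed circRNA, against 30.7% of shorter circRNAs. Both ends were used by other circRNAs in 473 (23.3%). In 44 (2.17%) there was a near twin with 1 end in common and the other end within 50 bp. Of the 22 such pairs of long-span circRNAs, 9 were made of circRNAs that each had reads in a library where the other had none.

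Most hosts contributed 1 long-span circRNA, and a few contributed many. There were 662 hosts with exactly 1, 420 with at least 2 and 76 with at least 5, and 160 hosts had no shorter circRNA at all. The 8 hosts with the most were Itga8 (15), Thsd4 (14), Arhgap10 and Itga9 (13 each), Foxp1 and Ltbp1 (11 each), and Asph and Dmd (10 each). Itga8 and Itga9 encode integrin alpha chains, Thsd4 and Ltbp1 encode proteins of the fibrillin microfibril, and Ltbp1 also holds latent TGF-beta. Arhgap10 encodes a GTPase-activating protein, Foxp1 a forkhead transcription factor and Dmd dystrophin.

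Itga8, the alpha 8 chain found on smooth muscle, lies at chr2:12106632-12301985 on the minus strand. Its 15 long-span circRNAs had 138 and 38 junction reads in high-fat 1 and 2, 33 and 61 in ApoE-/- chow libraries 1 and 2, and 96 and 5 in C57BL/6J chow 1 and 2. They held 54.5% of all Itga8 junction reads. They used 8 distinct starts and 10 distinct ends, and the commonest end, at position 12182751, was shared by 4. One circRNA, chr2:12160322-12189620, held 46.9% of the reads, and 9 of the 15 were seen in 1 library.

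Arhgap10 had 223 and 135 long-span junction reads in high-fat 1 and 2, 65 and 47 in ApoE-/- chow libraries 1 and 2, and 111 and 0 in C57BL/6J chow 1 and 2. High-fat 2 and high-fat 1 were above all 4 chow libraries in raw reads, without regard to depth. The long-span circRNAs held 70.3% of Arhgap10 junction reads. Its leading circRNA, chr8:77382725-77411128, had 96 and 56 junction reads in high-fat aortae, 36 and 32 in ApoE-/- chow aortae, and 72 and 0 in C57BL/6J chow aortae. In raw reads C57BL/6J chow 1 lay between the high-fat libraries. That order takes no account of depth, as C57BL/6J chow 1 held 25888 hosted junction reads and high-fat 2 held 16005.

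The other hosts of many had fewer reads. Thsd4 had 65 long-span junction reads over 14 circRNAs and Itga9 65 over 13, of which 11 and 9 were seen in 1 library. Foxp1 had 47 reads, Ltbp1 41 and Dmd 43. In Asph, the gene of an aspartyl hydroxylase, 1 of the 10 circRNAs held 81.9% of 144 reads.

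**Figure D3:**
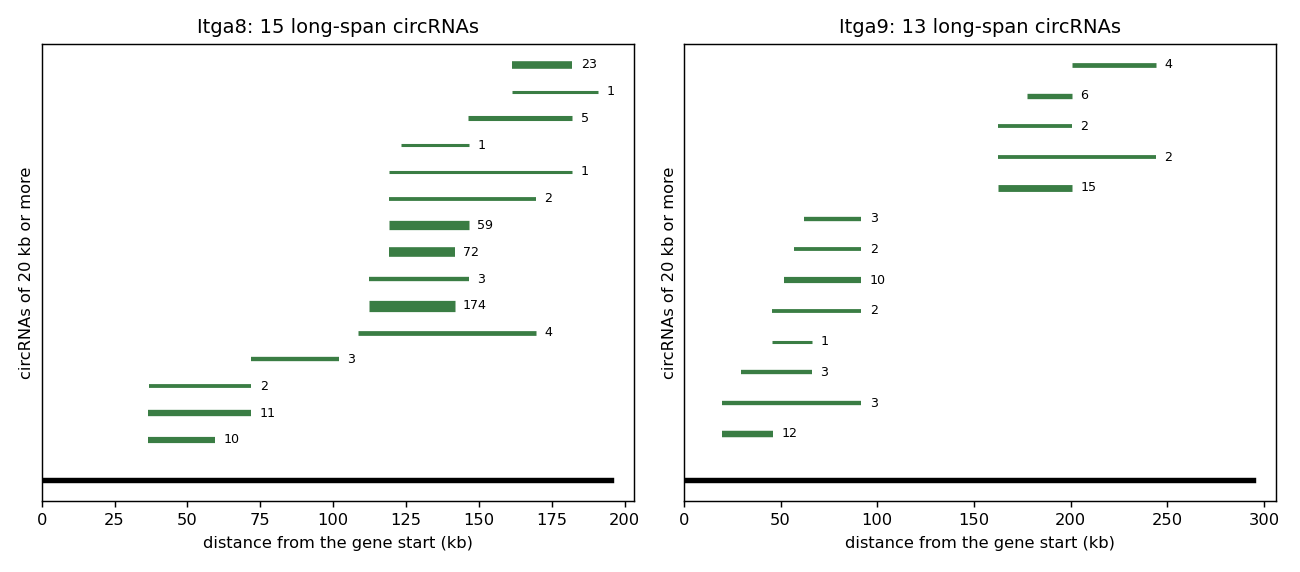
The 15 long-span circRNAs of Itga8 (left) and the 13 of Itga9 (right), each drawn as a green line from its upstream to its downstream end against distance from the gene start in kb, with the gene as a black line. The number beside a line is its junction reads summed over 6 libraries, and the line is thicker with more reads; reads in Itga8 gather in 3 circRNAs that overlap in the downstream part of the gene, and no Itga9 circRNA has more than 15.

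For some genes the long-span circRNAs were nearly the whole circular output. Among 263 hosts with a long-span circRNA and at least 50 junction reads, long-span circRNAs held a median of 11.4% of the reads, over 50% in 66 hosts and over 90% in 17. They held 99.6% in Cbfb, 97.6% in Stau2, 96.4% in Rnf169, 96.2% in Zeb1 and 95.5% in Acer3. In Glcci1, a glucocorticoid-induced gene, all 144 junction reads came from 5 long-span circRNAs that began at the same position, 8537817 on chromosome 6.

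The 12 long-span circRNAs with the most junction reads among those seen in all 6 libraries are given next. To set libraries of unequal depth side by side, reads were scaled to 100000 junction reads of hosted circRNAs. The circRNA of Rnf169, a ubiquitin-binding protein of the DNA break response, at chr7:99935162-99955540, had 158 and 44 junction reads in high-fat 1 and 2, 106 and 44 in ApoE-/- chow libraries 1 and 2, and 76 and 24 in C57BL/6J chow 1 and 2. Scaled, it reached 470 and 275 in high-fat aortae, 749 and 315 in ApoE-/- chow aortae, and 294 and 774 in C57BL/6J chow aortae. ApoE-/- chow 1 and C57BL/6J chow 2 were high, and each group overlapped the others.

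Zeb1, a zinc finger repressor known from epithelial-mesenchymal transition, gave a circRNA of 72040 bp at chr18:5633204-5705243. It had 97 and 19 junction reads in high-fat aortae, 42 and 40 in ApoE-/- chow aortae, and 77 and 6 in C57BL/6J chow aortae. Scaled, that was 288 and 119 in high-fat aortae, 297 and 286 in ApoE-/- chow aortae, and 297 and 194 in C57BL/6J chow aortae, so that 4 of the 6 libraries lay between 286 and 297 and the others lower.

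The leading circRNA of Itga8 had 69 and 14 junction reads in high-fat aortae, 19 and 23 in ApoE-/- chow aortae, and 46 and 3 in C57BL/6J chow aortae. Elf2, an ETS-family transcription factor, gave chr3:51299783-51326035 with 49 and 36 junction reads in high-fat aortae, 14 and 12 in ApoE-/- chow aortae, and 41 and 9 in C57BL/6J chow aortae. Scaled, the Elf2 circRNA was at 146 and 225 in high-fat aortae, 99.0 and 85.9 in ApoE-/- chow aortae, and 158 and 290 in C57BL/6J chow aortae. Both ApoE-/- chow libraries were below the other 4 for Elf2, and high-fat and C57BL/6J chow overlapped.

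Cbfb, the DNA-non-binding partner of RUNX transcription factors, gave 2 of the 12, which share the start at 105178593 on chromosome 8 and have spans of 23955 and 23986 bp. The shorter had 30 and 17 junction reads in high-fat aortae, 22 and 26 in ApoE-/- chow aortae, and 50 and 2 in C57BL/6J chow aortae. The longer had 38 and 17 in high-fat aortae, 9 and 5 in ApoE-/- chow aortae, and 22 and 2 in C57BL/6J chow aortae. Scaled to depth, high-fat lay below ApoE-/- chow for the shorter (89.2 and 106 against 155 and 186) and above it for the longer (113 and 106 against 63.6 and 35.8), without overlap in either case. Neither difference passed the test below.

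The other 6 came from Mark3, a kinase of microtubule-associated proteins, Phf20, a reader in a histone acetyltransferase complex, Asph, Stx6, a SNARE of the trans-Golgi network, Rbpms, an RNA-binding splicing regulator of smooth muscle, and Fryl. The smallest spread was that of Rbpms at chr8:33834304-33866404, with scaled levels of 86.2 and 74.98 in high-fat aortae, 84.8 and 71.6 in ApoE-/- chow aortae, and 81.1 and 64.5 in C57BL/6J chow aortae. Its mean over the 6 libraries was 77.2 ± 8.38 (SD, n = 6), against 479 ± 229 for Rnf169. The raw Rbpms reads were 29 and 12 in high-fat aortae, 12 and 10 in ApoE-/- chow aortae, and 21 and 2 in C57BL/6J chow aortae. At such counts a steady level cannot be told apart from counting error. Fryl had the widest spread of the low ones, at 21.5 (3 reads) in ApoE-/- chow 2 and 141 (20 reads) in ApoE-/- chow 1. Ranked by mean, Rnf169 and Zeb1 stood first, and the neighbours after them (Elf2, Itga8, the shorter Cbfb, Mark3) differed by less than their spread over libraries.

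**Figure D4:**
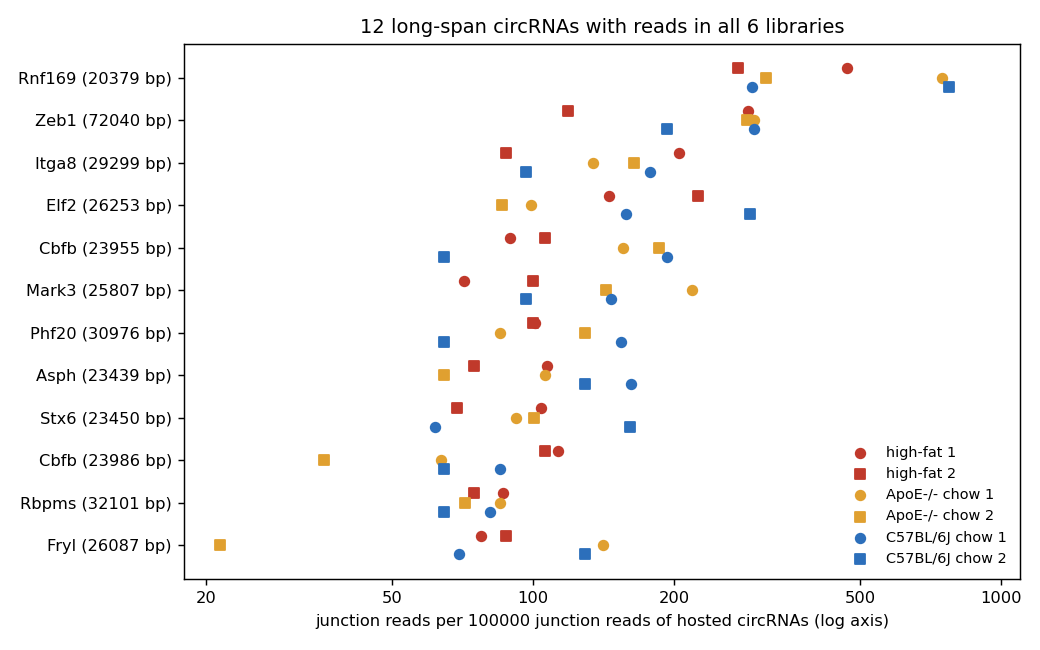
Junction reads per 100000 hosted junction reads (log axis) of the 12 long-span circRNAs in each library, with the span in bp after the gene symbol; red marks high-fat, yellow ApoE-/- chow and blue C57BL/6J chow, circles replicate 1 and squares replicate 2. Rnf169 and Zeb1 lie highest, the points of Rbpms lie close together, and the groups overlap in most rows.

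These 12 were all tested with edgeR's quasi-likelihood test, and none passed in any of the 3 comparisons, with a Benjamini-Hochberg adjusted p of 1 for each. Their log2 differences ran from -0.95 to 1.27 for high-fat minus ApoE-/- chow, from -0.45 to 0.72 for high-fat minus C57BL/6J chow and from -1.06 to 0.59 for ApoE-/- chow minus C57BL/6J chow.

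The series asks which circRNAs differ between atherosclerotic and control aortae. Entering the test took 5 or more junction reads in 2 or more libraries, which 154 of the 2030 long-span circRNAs met, so the test says nothing about the other 1876. In high-fat against ApoE-/- chow aortae 0 of the 154 passed at an adjusted p under 0.05, where 0.0985% of the 1015 circRNAs tested did. That percentage is 1 shorter circRNA, of the kinase gene Tlk1. At an unadjusted p under 0.05 there were 10 of the 154 (6.49%), against 5.32% of all tested, and DESeq2 called 0. The median log2 difference was 0.19 for long-span circRNAs and 0.18 for all tested.

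The 5 with the smallest p all had an adjusted p of 0.689 in edgeR's test and did not pass. In 3 of them reads were present in high-fat and absent in ApoE-/- chow aortae. Bckdhb, a subunit of the enzyme that breaks down branched-chain keto acids, had 37 and 9 junction reads at chr9:83988776-84012619 in high-fat 1 and 2, against 0 and 0 in ApoE-/- chow aortae and 20 and 0 in C57BL/6J chow. With a floor of 3 reads per library in place of the ApoE-/- chow zeros, the mean scaled level of this Bckdhb circRNA in high-fat aortae was 4.37-fold the floor. That ratio takes no account of the spread between the high-fat libraries. Arhgap32, a GTPase-activating protein, had 24 and 10 at chr9:32181842-32208265, and Phkb, the beta subunit of phosphorylase kinase, 28 and 7 at chr8:85875634-85901957, with 0 in all 4 chow libraries for both.

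The 3 hosts listed 31 other circRNAs with junction reads. Of these, 14 had 1 to 4 reads in 1 high-fat library and 0 in all 4 chow libraries, and the other 17 had reads in chow aortae. In Arhgap32 a shorter circRNA with the same start, chr9:32181842-32190061, had 38 and 9 junction reads in high-fat aortae, 0 and 27 in ApoE-/- chow aortae, and 31 and 0 in C57BL/6J chow aortae. In Phkb, chr8:85875634-85879810, again with the same start, had 34 and 34 in high-fat aortae, 11 and 38 in ApoE-/- chow aortae, and 34 and 0 in C57BL/6J chow aortae. A second Bckdhb circRNA, chr9:83952524-84012619, shares the end of the first and had 4 and 1 reads in high-fat aortae, 6 and 4 in ApoE-/- chow aortae, and 0 and 0 in C57BL/6J chow aortae.

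The remaining 2 had reads in chow aortae and none in high-fat aortae. Pdlim5, an actin-associated scaffold with PDZ and LIM domains, had 0 and 0 junction reads at chr3:142303943-142352885 in high-fat aortae, against 0 and 19 in ApoE-/- chow aortae and 46 and 0 in C57BL/6J chow. Glcci1 had 0 and 0 at chr6:8537817-8558586 in high-fat aortae, against 16 and 5 in ApoE-/- chow aortae and 0 and 2 in C57BL/6J chow. For Pdlim5 each chow group held 1 library with no reads. The 4 other Glcci1 circRNAs begin at the same position, and the leading one, chr6:8537817-8579739, had 31 and 4 junction reads in high-fat aortae, 4 and 8 in ApoE-/- chow aortae, and 24 and 1 in C57BL/6J chow aortae.

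In high-fat against C57BL/6J chow aortae 0 of the 154 passed, where 0.0985% of all tested did, again Tlk1. At an unadjusted p under 0.05 there were 12 (7.79%), against 4.63% of all tested, and DESeq2 called 0. The median log2 difference was 0.50 for long-span circRNAs and 0.45 for all tested. The smallest adjusted p in edgeR's test was 0.407, for the Pdlim5 circRNA given above. Etv6, an ETS-family repressor, had 21 and 25 junction reads at chr6:134115220-134137417 in high-fat aortae, 4 and 4 in ApoE-/- chow aortae, and 0 and 0 in C57BL/6J chow aortae, with an adjusted p of 0.723 in edgeR's test. The longer Etv6 circRNA with the same end, chr6:134066307-134137417, had 14 and 10 in high-fat aortae, 9 and 3 in ApoE-/- chow aortae, and 17 and 5 in C57BL/6J chow aortae. C57BL/6J chow 1 was the highest in raw reads. Depth was not taken into account, and C57BL/6J chow 1 and 2 held 25888 and 3100 hosted junction reads. The bicarbonate transporter gene Slc4a4 (0 and 0 in high-fat against 0 and 6 in C57BL/6J chow), Tmem164 (20 and 12 against 0 and 0) and the Arhgap32 circRNA filled the 5.

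In ApoE-/- chow against C57BL/6J chow aortae 0 of the 154 passed, and 0.0% of all tested did. At an unadjusted p under 0.05 there were 11 (7.14%), against 5.71% of all tested, and DESeq2 called 0. The median log2 difference was 0.12 for long-span circRNAs and 0.19 for all tested. The smallest p belonged to Rnf13, an endosomal ubiquitin ligase, at chr3:57769040-57796295, with 8 and 12 junction reads in ApoE-/- chow against 0 and 0 in C57BL/6J chow aortae and an adjusted p of 0.781 in edgeR's test. Its near twin, chr3:57769040-57796285, is 27246 bp long against 27256 bp and had 15 and 6 reads in ApoE-/- chow against 36 and 0 in C57BL/6J chow aortae. In C57BL/6J chow 1 all 36 reads of the pair were listed under the shorter. The Bckdhb circRNA, and circRNAs of the Rap activator Rapgef6, the cohesin subunit Stag1 and the focal adhesion protein Lpp, followed with the same adjusted p or one of 0.798.

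Of the long-span circRNAs, 979 had at least 10 interval reads in 2 libraries. Interval reads are a poor measure of those that share their bases: of 810 that lay wholly under other listed intervals, 681 (84.1%) had no interval read, against 1 of the other 1220 (0.0820%). Zeb1, Itga8, Elf2 and both Cbfb circRNAs were among those with none. In each of the 3 comparisons 0 of the 979 passed in edgeR's test, and 0.0% of the 11475 intervals tested did. At an unadjusted p under 0.05 there were 15 (1.53%) in high-fat against ApoE-/- chow, 31 (3.17%) in high-fat against C57BL/6J chow and 22 (2.25%) in ApoE-/- chow against C57BL/6J chow aortae. For all intervals tested these shares were 2.0%, 3.8% and 2.76% in the same comparisons. The median log2 differences of long-span intervals were -0.09, -0.13 and -0.03 in these comparisons, against 0.03, -0.02 and -0.03 for all intervals.

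The long-span interval with the smallest p in both high-fat comparisons lay in Trpc6, a receptor-operated calcium-permeable channel of vascular smooth muscle, at chr9:8634047-8658377. It had 169 and 99 interval reads in high-fat 1 and 2, 20 and 14 in ApoE-/- chow libraries 1 and 2, and 16 and 16 in C57BL/6J chow 1 and 2. Both high-fat libraries were above all 4 chow libraries, at 2.21 and 1.29 RPM in high-fat aortae, against 0.259 and 0.186 in ApoE-/- chow aortae and 0.223 and 0.231 in C57BL/6J chow. The log2 difference was 2.93 ± 0.65 (SE) from ApoE-/- chow, with an adjusted p of 0.224 in edgeR's test, and 2.68 ± 0.65 from C57BL/6J chow, with an adjusted p of 0.342. DESeq2 gave an adjusted p of 0.0271 for the first comparison, the only long-span interval it called, where it called 0.00871% of all intervals tested. Over 13 alternatives the adjusted p ran from 0.0271 to 1.00 for the first comparison and from 0.0362 to 0.845 for the second, and 2 passed in each.

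Junction reads of the same Trpc6 circRNA were 27 and 6 in high-fat aortae, 0 and 0 in ApoE-/- chow aortae, and 5 and 0 in C57BL/6J chow aortae. It was the only Trpc6 circRNA with junction reads in more than 2 libraries. The other long-span Trpc6 interval, chr9:8655177-8680653, overlaps it. That interval had 0.0131 and 0.0914 RPM of interval reads in high-fat aortae, 0 and 0.0265 in ApoE-/- chow aortae, and 0 and 0 in C57BL/6J chow aortae. The neighbouring listed interval, chr9:8609700-8626775, had 4 and 6 interval reads in high-fat aortae, 9 and 7 in ApoE-/- chow aortae, and 7 and 4 in C57BL/6J chow aortae. The summed interval reads of macrophage markers were also higher in both high-fat libraries, as given above. That sum came mostly from Lyz1 and Gpnmb. Itgam and Mrc1 overlapped between high-fat and chow libraries, Mrc1 with 0.681 and 0.248 RPM in high-fat aortae and 0.919 in C57BL/6J chow 1. The platelet chemokine gene Ppbp, the only blood marker of 4 listed, was higher in both high-fat libraries as well. It had 0.995 and 1.25 RPM in high-fat aortae, 0.142 and 0.172 in ApoE-/- chow aortae, and 0.139 and 0.203 in C57BL/6J chow aortae. The 3 listed fibroblast markers of 5 (Dcn and Lum were not listed) summed to 17.8 and 26.7 RPM in high-fat aortae, 16.9 and 14.4 in ApoE-/- chow aortae, and 16.2 and 12.7 in C57BL/6J chow aortae, again without overlap. Of these, Col1a2 did not overlap between high-fat and chow libraries, and Col1a1 and Pdgfra did. Sums of smooth muscle, endothelial, adipocyte and lymphocyte markers overlapped between high-fat and chow libraries. The markers' part in the Trpc6 values was not tested.

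**Figure D5:**
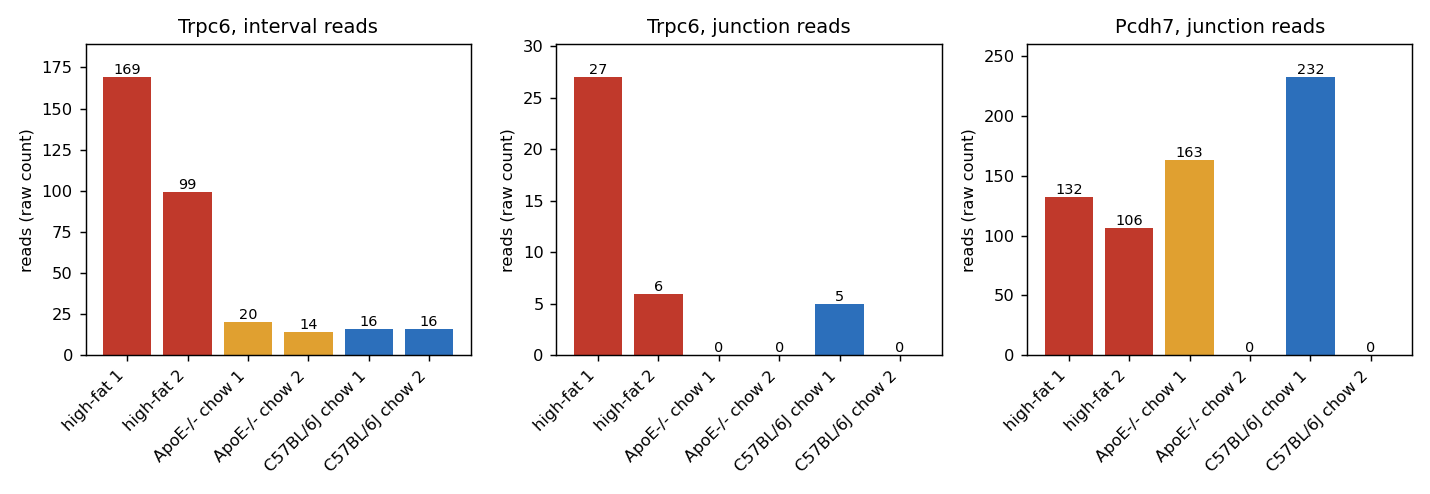
Raw reads per library for the Trpc6 circRNA of 24331 bp (interval reads left, junction reads middle) and for the Pcdh7 circRNA of 29107 bp (junction reads right), with red for high-fat, yellow for ApoE-/- chow and blue for C57BL/6J chow. Trpc6 interval reads are 169 and 99 in high-fat against 14 to 20 in the chow libraries, and Pcdh7 has 106 to 232 junction reads in 4 libraries and 0 in 1 library of each chow group.

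The next smallest p-values for interval reads were far from the threshold, with adjusted p-values of 0.853 or more in edgeR's test. For high-fat against ApoE-/- chow they belonged to Odf2, a centriole and sperm tail protein, with 25 and 34 against 6 and 5 interval reads, and to Wwox, Rbfox2 and Mcc. For high-fat against C57BL/6J chow they belonged to Atrnl1 (18 and 20 against 1 and 0), Mvb12b, an ESCRT-I subunit (14 and 39 against 4 and 0), Jarid2, a Polycomb cofactor (26 and 20 against 1 and 3), and Plxdc2, the 1 lower interval among them (13 and 11 against 34 and 40). For ApoE-/- chow against C57BL/6J chow they belonged to Ubap2 (27 and 39 against 2 and 6), Mcc, Prkd1, the noncoding gene 6720401G13Rik and Ncoa2, a nuclear receptor coactivator (3 and 5 against 14 and 24). The Jarid2 and Rbfox2 intervals span 91803 and 98721 bp, and no library had more than 47 interval reads in either.

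The long-span circRNA with the most reads, named after its values were seen, came from the protocadherin gene Pcdh7 at chr5:57913156-57942262. It had 132 and 106 junction reads in high-fat 1 and 2, 163 and 0 in ApoE-/- chow libraries 1 and 2, and 232 and 0 in C57BL/6J chow 1 and 2. The first replicates and high-fat 2 were high and 1 library of each chow group was at 0. Without ApoE-/- chow 1, the library whose columns carry a C57BL/6J name, the ApoE-/- chow group was left with 0 reads, and edgeR's adjusted p was 0.0147 for high-fat against ApoE-/- chow and 0.044 for ApoE-/- chow against C57BL/6J chow. With all 6 libraries both were 1, and over 12 other alternatives they ran from 0.938 to 1 and from 0.651 to 1. In the fits that left a library out, the lone library was assumed to vary like the other groups. The 19 shorter Pcdh7 circRNAs had 7 and 10 junction reads in high-fat aortae, 3 and 10 in ApoE-/- chow aortae, and 12 and 3 in C57BL/6J chow aortae, so the gene had junction reads in each library.

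Such gaps were common. Of 61 long-span circRNAs with at least 20 junction reads in some library, 29 (47.5%) had 0 in at least 1 of the 5 libraries other than C57BL/6J chow 2, and 14 (23.0%) in at least 2. Among 282 shorter circRNAs of the same kind 94 (33.3%) and 49 (17.4%) had such gaps. Sh3pxd2a, an adaptor protein of podosomes, gave another example at chr19:47283021-47314166, with 0 and 28 junction reads in high-fat aortae, 33 and 0 in ApoE-/- chow aortae, and 136 and 0 in C57BL/6J chow aortae.

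Host genes were also described by lists of known function. Over all hosts of 20000 bp or more, 994 symbols of 5154 (19.3%) gave a long-span circRNA. Over all 7047 hosts of any length, long-span circRNAs held 13.7% of junction reads. Of 23 smooth muscle genes of that length 13 did, with 57 circRNAs and 813 reads, which is 27.3% of the list's junction reads. Most of these reads came from Itga8 (371), Pdlim5 (246) and Lpp (92). The list was chosen with earlier results of these data known, so its values are a description and not a test. The smooth muscle list took 4.94% and 4.33% of long-span junction reads in high-fat aortae, 4.51% and 6.96% in ApoE-/- chow aortae, and 7.30% and 3.94% in C57BL/6J chow aortae, and the groups overlapped.

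Of 27 chromatin modifier genes 15 gave long-span circRNAs, with 175 reads, led by Arid1b (62), a subunit of the BAF remodelling complex, Hdac9 (42), a class IIa histone deacetylase, and Jarid2 (16). Of 43 widely reported circRNA hosts 24 did, with 1516 reads, led by Arhgap10 (581), Pdlim5 and Elf2 (178). Of 15 regulators of back-splicing 6 did, with 58 reads, led by the CELF protein gene Celf2 (34), Rbfox2 (10) and Mbnl1 (6). These lists hold long genes, which can fit a span of 20000 bp, and gene length was not matched.

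The lists of other cell types gave fewer reads than smooth muscle, from fewer long genes. The share of genes of 20000 bp or more with a long-span circRNA was 3 of 5 for striated muscle, 4 of 9 for adipocyte, 2 of 6 for macrophage and myeloid and 2 of 8 for Schwann and neural genes. It was 5 of 21 for fibroblast and matrix, 2 of 9 for endothelial, 0 of 3 for lymphocyte and 0 of 1 for blood cell genes. Of 6 macrophage and myeloid genes 2 gave 1 read each, from Itgax in C57BL/6J chow 2 and from Mertk in ApoE-/- chow 2, and none in high-fat aortae. Endothelial genes gave 6 reads (Vwf and Erg), striated muscle genes 10 (led by Myom1), Schwann and neural genes 5 (Ank3 and Dst), and lymphocyte and blood cell genes none. Adipocyte genes gave 31 reads, led by Ebf1 with 11 and 8 in high-fat aortae, 1 and 3 in ApoE-/- chow aortae, and 0 and 0 in C57BL/6J chow aortae. Fibroblast and matrix genes gave 53 (led by Ltbp1), genes of cholesterol and lipid handling 13 (led by the cholesterol exporter Abca1 with 9), and genes of TGF-beta, Wnt and Notch signalling 21 (led by the kinase Gsk3b with 8).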

How the data were processed

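The deposited tables give, per the file headers, a count, an RPM and a junction column for each library. The junction and count columns hold whole-number counts, made by the authors, of reads over the back-spliced join and over the whole interval. The deposited RPM is that interval count scaled by the library's total reads. Per the submitters' processing notes, TopHat, HTSeq and GRCm38 (mm10) were used; no source used here names the caller of back-spliced joins. Interval reads are count minus junction reads. No label ties replicates to separate animals, so p-values reflect a spread among samples that may be technical, and group cannot be told apart from batch. Replicates differed beyond sampling noise (chi-square per degree of freedom 5.32 to 5.79).

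Counts were tested with edgeR 4.0.16 (R 4.3.3, quasi-likelihood, robust, TMM, all 6 libraries, at least 5 junction or 10 interval reads in 2 libraries, Benjamini-Hochberg threshold 0.05). A run on simulated data came first. Its spread was set below that of these data, so it does not show how the test behaves at their spread. A standard error is the log2 difference over the root of F. DESeq2 1.42.0, other scalings and read minimums, fewer libraries and a replicate block were the alternatives. Numbers at equal depth are hypergeometric expectations. Members and lists were chosen with earlier results of these data known. Named circRNAs are the 12 in most libraries, ties by reads; per comparison those past the threshold or the 5 smallest p; the 5 longest; 2 each side of the limit; the 8 hosts with most; and up to 3 hosts per list. Of the 5 longest, 1 is not reported here.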

Additional observations from a re-analysis of the deposited data

How the results depend on the processing

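Of the named circRNAs' tests, 347 values under an alternative kept their direction and their side of the threshold, and 4, all of the Trpc6 interval, passed it. These had a log2 difference of 2.91 at a minimum of 20 reads (adjusted p 0.0477) and 2.92 with DESeq2 for high-fat against ApoE-/- chow, and of 2.94 with total-read scaling (adjusted p 0.0362) and 2.73 without C57BL/6J chow 1 for high-fat against C57BL/6J chow. A circRNA at 0 in both groups of a refit gave no value. The counts of calls were small and moved with the settings, and the cause was not tested. For junction reads, high-fat against ApoE-/- chow gave 1 call in all, 0 with total-read scaling, a minimum of 10 reads or DESeq2, 3 with no minimum and 0 to 3 with a library left out; long-span circRNAs gave 0 to 1. High-fat against C57BL/6J chow gave 1 call, 0 with total-read scaling, a minimum of 10, DESeq2, the replicate block or the 4 libraries alone, 3 with no minimum and 0 to 2 with a library left out. ApoE-/- chow against C57BL/6J chow gave 0 calls, 2 with no minimum and 0 to 2 with a library left out (long-span 0 to 1). For interval reads, high-fat against ApoE-/- chow gave 0 calls, 2 (1 long-span) at a minimum of 20 and 1 (1 long-span) with DESeq2. High-fat against C57BL/6J chow gave 0, 4 (1 long-span) with total-read scaling, 1 with no minimum, 2 at a minimum of 20, and 0 to 128 with a library left out; long-span intervals gave 0 to 4, the 4 without C57BL/6J chow 1 being Trpc6, Itgb3, Fam129a and Psg23. ApoE-/- chow against C57BL/6J chow gave 0, and 0 to 33 with a library left out. The replicate block changed no other call; replicate numbers do not pair the libraries (correlations of deviations -0.0419 to 0.0668). The share of junction reads stayed higher in high-fat, by 0.666 to 3.03 points with a library left out and by 0.223 to 4.18 points at other span limits, member filters and the denominator of all junction reads, and by 21.4 RPM when scaled to library totals. Depth limits what could be tested: 154 of the 2030 long-span circRNAs had enough junction reads and 979 enough interval reads.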

Other observations

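The 36 intervals of 20000 bp or more that had no host symbol or were mitochondrial had 20 and 13 junction reads in high-fat 1 and 2, 22 and 8 in ApoE-/- chow libraries 1 and 2, and 25 and 5 in C57BL/6J chow 1 and 2.

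Near twins differed in how libraries were split between them. Pdgfd, a platelet-derived growth factor gene, had chr9:6288472-6337441 with 8 and 0 junction reads in high-fat aortae, 0 and 5 in ApoE-/- chow aortae, and 0 and 0 in C57BL/6J chow aortae, and chr9:6288490-6337441, which has the same end, with 6 and 5 in high-fat aortae, 0 and 4 in ApoE-/- chow aortae, and 16 and 0 in C57BL/6J chow aortae. In the homeobox gene Meis2, chr2:116000131-116049259 had 6 reads, all in C57BL/6J chow 1, and chr2:116000131-116049267 had 3 in each ApoE-/- chow library and 3 in C57BL/6J chow 1. Values of this kind are listed as separate circRNAs in the deposited tables, and no alternative that merges them was run.

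The Psg23 interval at chr7:18608572-18648861, in a gene of the pregnancy-specific glycoprotein family, had 3.23 and 2.23 RPM of interval reads in high-fat aortae, 6.63 and 3.92 in ApoE-/- chow aortae, and 3.19 and 8.26 in C57BL/6J chow aortae. The placement of reads among members of this family was not tested.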
